A study of Mus musculus with 2 samples.

Results

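The small leucine-rich proteoglycans are a family of secreted matrix proteins built from leucine-rich repeats. A total of 10 members known from cartilage were examined here: Dcn, Bgn, Aspn, Fmod, Lum, Prelp, Omd, Epyc, Ogn and Chad. They were taken by name, and a gene was matched through probes that the array files list by a RefSeq transcript of that gene. Of the 10 genes, 9 had such a probe, out of 20660 genes matched in this way. No probe matched Prelp, which is not analysed here. Each of the 9 genes had 1 such probe, printed as 1 spot per array, so that there was no other matched probe to set beside it. Probes listed in other ways were not searched for these genes.

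RNA came from primary chondrocytes of 6-day-old C57BL/6J mice, which the methods describe as articular chondrocytes released with collagenase. The cells had been seeded for 48 h on fibronectin-coated silicon chambers. In the first group RNA was taken before loading, and in the other it was collected 24 h after the chambers had been stretched by 10% at 0.5 Hz for 30 min. The labels give the same strain for both groups and name no genotype beyond it, and neither the labels nor the methods used here say how many animals or cultures were pooled. There was 1 array per time point and no replicate, and the differences therefore carry no test. An unloaded culture of the later time point was not analysed here, so that loading cannot be told apart from the extra day in culture.

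In cartilage these proteins coat collagen fibrils, set their thickness and spacing, and hold growth factors of the TGF-β family in the matrix. Class I members (Dcn, Bgn, Aspn) typically carry chondroitin or dermatan sulfate, except that asporin has a run of aspartate residues in place of the attachment site. Class II members (Fmod, Lum, Prelp, Omd) carry keratan sulfate or related sugars, and several have sulfated tyrosines near the start of the protein. Class III holds Epyc and Ogn, and chondroadherin (Chad) stands apart as a member that binds collagen and the integrin α2β1.

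Intensities are given as the scanner software corrected them for background. For ratios each was first divided by the 75th percentile on the same array, which lay at 466.37 before loading and 466.15 at 24 h. A positive log2 ratio means a higher value at 24 h. The errors given are those of the scanner software and cover within-array error only. For bright spots this error was a nearly fixed share of the intensity, for example 8157 of 81565 for Dcn and 1308 of 13081 for Ogn before loading. The error of a log2 ratio was thus near 0.20 for most detected genes (median 0.2043). A multiple of it mostly restates the size of the ratio and is not a noise level measured between cultures. For probes printed in at least 8 spots that were all well above background, the log2 ratio varied between spots of a probe with a median SD of 0.08 (259 probes). A gene is called detected where its probe was well above background on both arrays, which held for 14231 genes. All 14 listed chondrocyte markers were detected, and Col2a1, the main cartilage collagen, had intensities of 499543 before loading and 474876 at 24 h.

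All 9 proteoglycans were detected on both arrays. At 24 h Ogn was 2.02-fold higher and Chad was 1.82-fold lower, and the other members lay between a log2 ratio of -0.28 (Bgn) and 0.51 (Fmod). Counted by direction alone, 6 were higher and 3 were lower. The median log2 ratio of the 9 was 0.13, against -0.01 over all detected genes, of which 47.6% had a ratio above 0. Of the 9, 3 (Dcn, Lum and Epyc) differed by less than their within-array error and 4 (Ogn, Chad, Fmod and Aspn) by more than 2 such errors. Beyond 2-fold there was 1 member higher and 0 lower, beside 0.668% of all detected genes higher and 1.83% lower. Beyond 1.5-fold there was 1 higher and 1 lower, beside 3.65% and 5.84% of all detected genes. With so few genes called, these counts describe Ogn and Chad rather than the family. In bulk RNA a change in the share of cells that express a gene and a change in RNA per cell cannot be told apart.

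**Figure D1:**
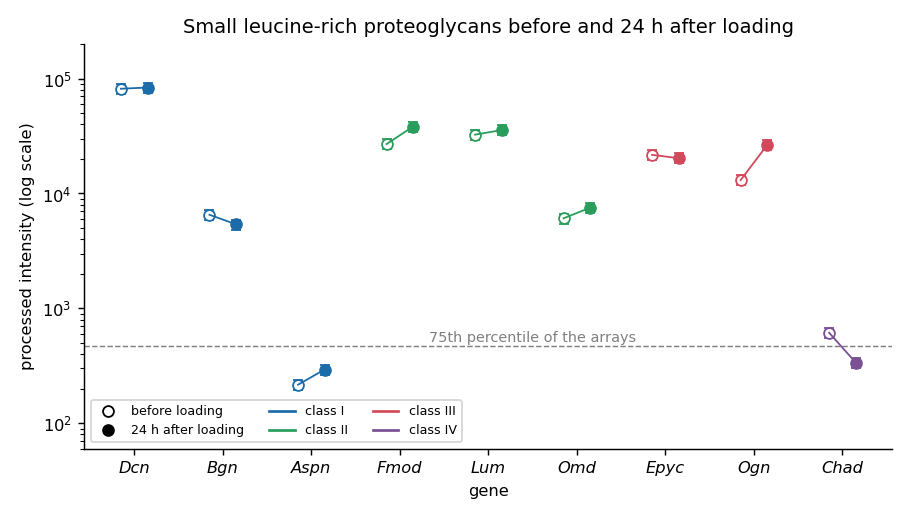
Processed intensity (log scale) of the 9 measured proteoglycans before loading (open circles) and 24 h after loading (filled circles), with 1 array per time point and bars for the scanner software's error. Ogn goes from 13081 to 26390 and Chad from 614 to 338, which crosses the 75th percentile of the arrays (dashed line), while Dcn, Lum and Epyc stay nearly level.

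In class I, decorin (Dcn), which binds along collagen fibrils and captures TGF-β, had an intensity of 81565 before and 83597 at 24 h after loading. Its log2 ratio was 0.04, well inside the within-array error (0.20). Biglycan (Bgn), the close relative of decorin that also acts as a signal through Toll-like receptors when released, had 6527 before loading and 5391 at 24 h. The log2 ratio of Bgn was -0.28, or 1.21-fold lower, and the errors of its intensities (653 and 539) overlapped. Asporin (Aspn), which binds collagen and restrains TGF-β, had 217 before loading and 293 at 24 h. These intensities lay below the 75th percentile of both arrays, at 0.46 and 0.63 times it, and were well above background, as the uncorrected spot medians were 261 and 335 over local backgrounds of 31 and 33. The log2 ratio of Aspn was 0.44 (within-array error 0.21), or 1.35-fold higher. The 10 detected spots within 100 µm of the Aspn spot, which lies at the edge of the array, had a median log2 ratio of 0.32, and the part of this in the value of Aspn was not tested. The class I genes thus lay on both sides of 0, with Aspn above it, Bgn below it and Dcn at it.

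All 3 measured members of class II were higher at 24 h, by unequal amounts. Fibromodulin (Fmod), which helps collagen fibrils to assemble and mature, measured 26910 before loading and 38232 at 24 h. Its log2 ratio was 0.51, or 1.42-fold higher, and the errors of the intensities (2691 and 3823) did not overlap. Osteomodulin (Omd), an acidic keratan sulfate proteoglycan first known from bone matrix, had 6082 before loading and 7524 at 24 h. The log2 ratio of Omd was 0.31, or 1.24-fold higher, which is 1.51 times its within-array error. Lumican (Lum), which regulates fibril spacing and shares a binding region on collagen with fibromodulin, had 32509 before loading and 35632 at 24 h. At a log2 ratio of 0.13, Lum stayed inside its error (0.20). The detected spots around Fmod, Omd and Lum had median log2 ratios of -0.14, -0.05 and 0.12.

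The members of class III differed from each other. Osteoglycin (Ogn), also called mimecan, a small fibril-binding protein of bone and connective tissue, had an intensity of 13081 before loading (error 1308) and 26390 at 24 h (error 2639). Its log2 ratio of 1.01 was 4.97 times the within-array error of 0.20, and among 14231 detected genes it ranked 90 from the top. The ratio lay only just past 2-fold. Of the 8564 detected genes with a mean above the 75th percentile, 7 were members. Past 2-fold, 1 of these 7 (Ogn) was higher and 0 were lower, beside 0.315% and 0.899% of the 8564 genes. Past 1.5-fold the same counts stood beside 2.1% and 3.15%. Chad is not among the 7, because the mean takes in its lower value at 24 h. Its intensity was 1.32 times the 75th percentile before loading and 0.72 times it at 24 h. Epiphycan (Epyc), which is typical of growth plate cartilage, had 21696 before loading and 20277 at 24 h. The log2 ratio of Epyc was -0.10, inside its error, and it was above 0 when the arrays were scaled by their medians or by quantiles. The log2 ratio of Ogn exceeded that of Epyc by 1.11, with a combined within-array error of 0.29.

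Chondroadherin (Chad), which ties cells to collagen, was the member with the lowest ratio. Its intensity was 614 before loading (error 61.5) and 338 at 24 h (error 34.0). The log2 ratio was -0.86 (within-array error 0.20), and 2.48% of detected genes had a lower one. The probe was above the 75th percentile before loading, at 1.32 times it, and below it at 24 h, at 0.72 times it. The 16 detected spots around that of Chad had a median log2 ratio of -0.01.

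**Figure D2:**
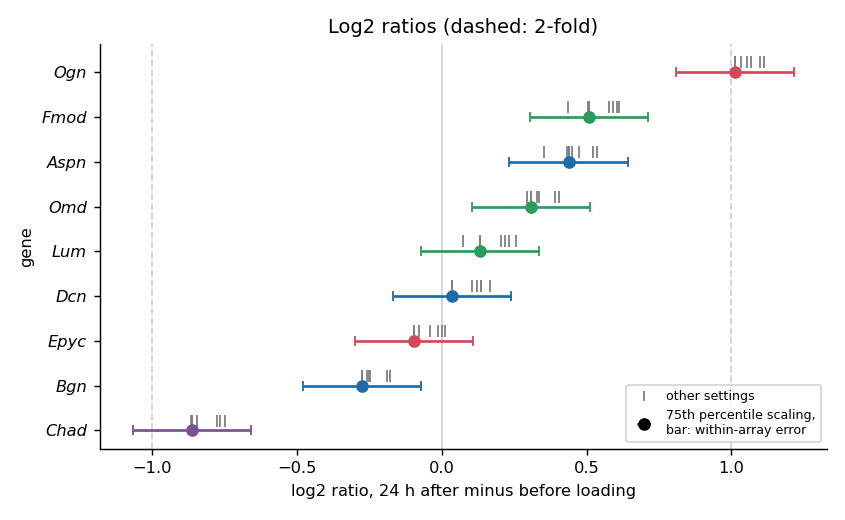
Log2 ratio (24 h after minus before loading) of each measured proteoglycan, coloured by class as in the plot of intensities, with the within-array error as a bar and grey ticks for the other processing settings. Ogn lies just past the dashed 2-fold line at 1.01, Chad lies at -0.86 inside it, and only for Epyc do ticks fall on both sides of 0.

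The members were not equally bright, and probes of different genes respond differently, so that their intensities give no order of abundance. Ogn and Fmod ranked 90 and 732 from the top of 14231 detected genes by log2 ratio, and Aspn ranked 1014. Bgn ranked 2512 and Chad 354 from the bottom. Among spots detected on both arrays, none within 100 µm of the 9 member spots was more than 2-fold higher. Of these detected spots 1, near Fmod, was more than 2-fold lower. Spots not detected were left out, and around Lum 11 of 30 spots were detected.

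**Figure D3:**
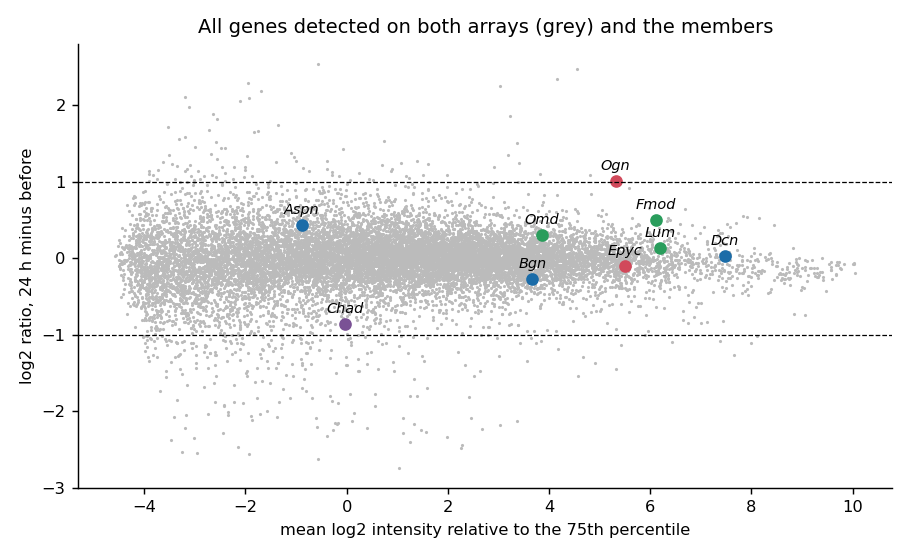
Log2 ratio (24 h minus before loading) against mean log2 intensity relative to the 75th percentile, for the 14231 genes detected on both arrays (grey) and the 9 measured members (coloured by class). Among the members Ogn alone reaches the upper dashed 2-fold line, and Chad is the lowest.

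Genes of this family lie side by side in groups in the mouse genome, and the order used here is that of RefSeq on assembly GRCm38. On chromosome 13 the order is Ecm2, Aspn, Omd and Ogn, and all 4 lie within the span of Cenpp, a gene of the centromere. All 4 were higher at 24 h. The family gene Ecm2, an extracellular matrix protein with leucine-rich repeats, measured 137 before loading and 208 at 24 h, a log2 ratio of 0.60. Together with Aspn (0.44), Omd (0.31) and Ogn (1.01) these 4 ratios stayed above 0 under the settings run for each gene. Most of these settings could hardly turn a sign, so that this adds little. Ecm2 had a dim probe and a log2 ratio of 0.37 with normexp correction. The detected spots around Aspn had a median log2 ratio of 0.32, and the ratio of Omd was 1.51 times its within-array error. The host gene Cenpp went the other way, with an intensity of 921 before and 332 at 24 h after loading and a log2 ratio of -1.47. The nearest genes with a value on either side, Ippk and Iars, had log2 ratios of 0.07 and -0.04, within their error of 0.20.

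On chromosome 10 the order is Dcn, Lum, Kera and Epyc, and here the measured members stayed within their error, at log2 ratios of 0.04, 0.13 and -0.10. Kera, the keratocan gene of the cornea, was printed in 9 usable spots. Well above background were 0 of these spots on the first array and 1 on the second. The nearest detected genes outside this group, Btg1 and Atp2b1, had log2 ratios of 0.15 and 0.04. On chromosome 1, Optc, Prelp and Fmod lie next to each other. Optc, which encodes opticin of the eye, had a dim probe with 63.3 before loading and 95.9 at 24 h. Its log2 ratio was 0.60, with an error of 0.24. Its neighbour Atp2b4 had -0.14, and Btg2, next to Fmod, had 0.15. Chad lies within the span of Acsf2 on chromosome 11, and Acsf2 differed little, at a log2 ratio of -0.08. The difference between the chromosome groups was not tested.

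**Figure D4:**
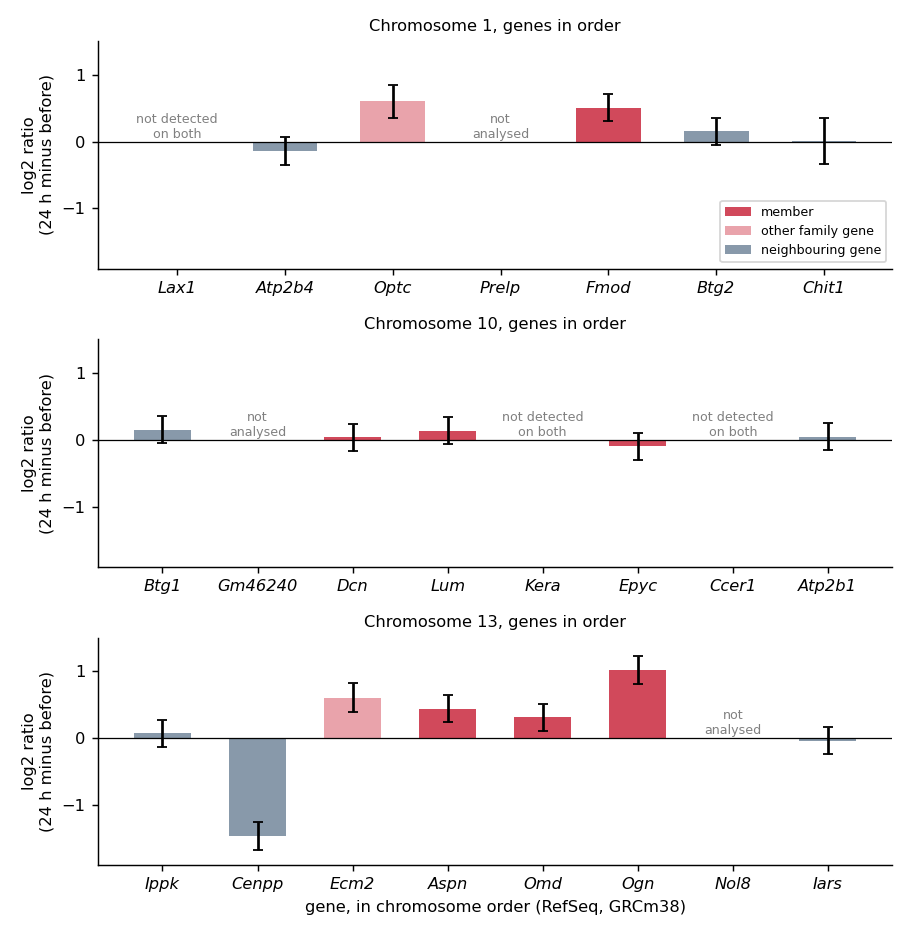
Log2 ratio (24 h minus before loading, bars show the within-array error) of family genes and their nearest neighbours, in chromosome order and not to scale. On chromosome 13, Ecm2, Aspn, Omd and Ogn all lie above 0 and Cenpp lies at -1.47, whereas on chromosome 10 Dcn, Lum and Epyc lie near 0.

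The start regions of the chromosome 13 members, which each had a log2 ratio above 0, and of Chad, the member with the lowest ratio, follow. Each runs 5′ to 3′ on the strand of its gene, from 250 bases before the start site to 50 after it, and comes from RefSeq on build GRCm38.p6. The regions are chr13:49607765-49608064 for Ogn, chr13:49582212-49582511 for Omd, chr13:49544193-49544492 for Aspn and chr11:94564797-94565096 for Chad, all on the forward strand. Capitals mark matches, on either strand, to TATAAA (the TATA box) or GGAATG (a TEAD motif).
Ogn: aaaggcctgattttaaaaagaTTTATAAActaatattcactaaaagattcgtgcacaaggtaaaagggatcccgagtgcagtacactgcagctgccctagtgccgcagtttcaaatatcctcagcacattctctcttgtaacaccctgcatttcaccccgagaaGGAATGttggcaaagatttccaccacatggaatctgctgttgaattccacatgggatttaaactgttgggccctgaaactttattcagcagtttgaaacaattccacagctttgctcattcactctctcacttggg
Omd: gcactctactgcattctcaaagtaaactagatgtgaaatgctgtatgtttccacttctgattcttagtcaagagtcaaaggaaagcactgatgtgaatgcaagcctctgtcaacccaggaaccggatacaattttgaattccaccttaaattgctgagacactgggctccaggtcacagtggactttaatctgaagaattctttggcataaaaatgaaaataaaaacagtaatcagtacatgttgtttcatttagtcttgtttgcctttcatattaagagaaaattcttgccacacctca
Aspn: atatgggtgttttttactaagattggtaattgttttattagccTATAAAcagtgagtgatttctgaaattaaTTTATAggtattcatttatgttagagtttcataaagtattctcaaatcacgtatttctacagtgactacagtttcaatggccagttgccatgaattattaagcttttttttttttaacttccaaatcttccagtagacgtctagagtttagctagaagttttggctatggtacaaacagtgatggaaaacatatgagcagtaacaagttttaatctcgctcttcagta
Chad: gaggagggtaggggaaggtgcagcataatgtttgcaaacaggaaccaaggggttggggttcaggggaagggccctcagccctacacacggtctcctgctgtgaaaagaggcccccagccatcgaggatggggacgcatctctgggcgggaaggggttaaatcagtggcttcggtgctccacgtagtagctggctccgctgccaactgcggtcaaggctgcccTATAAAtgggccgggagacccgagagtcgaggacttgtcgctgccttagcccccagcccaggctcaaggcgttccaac

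A TATA box lay at -28 from the start site of Chad, where such boxes usually stand. In Ogn the matches to TATAAA, at -229 and -227, overlap on opposite strands and lie far from the start, and those in Aspn lie at -207 and -178. Ogn also holds GGAATG at -86, and the Omd region holds no match to either motif. TATAAA occurs in 13.6% and GGAATG in 14.7% of 32851 start regions of the same length. No match to TGANTCA (AP-1, in 7.81% of all regions), the NF-κB motif (in 0.411%) or the CArG box of serum response factor (in 1.63%) was found in the 9 regions of the 8 members that the table holds. These matches describe letters and not bound sites. The regions of Aspn, Omd and Ogn contain 31.0%, 37.7% and 42.3% G and C, against 61.0% in Chad and a median of 52.7% over all regions. The regions of Epyc contain 40.3% and 32.3%, and those of Fmod, Prelp and Bgn 51.0%, 55.3% and 63.7%. A link between this content and the log2 ratios was not tested.

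Of 8 further genes of the leucine-rich proteoglycan family, all 8 had a probe and 6 were detected. Of these, 5 were higher and 1 was lower, with a median log2 ratio of 0.54. Past 1.5-fold there were 3 higher (Podn, Ecm2 and Optc) and 0 lower, beside the 3.65% of all detected genes that were higher. Podn, which encodes the matrix protein podocan, had an intensity of 544.5 before and 866 at 24 h after loading. Its log2 ratio was 0.67, with an error of 0.20. Chadl, the chondroadherin-like gene, which binds collagen in cartilage, had 31697 before loading and 44445 at 24 h. Its log2 ratio of 0.49 and the 0.63 of its dim second probe were both above 0, whereas that of Chad was -0.86. Tsku had a log2 ratio of 0.38, and Podnl1 (-0.07) was higher with median and spike-in scaling. With normexp background correction the log2 ratios of Ecm2 and Optc came down to 0.37 and 0.27, so that Podn alone stayed past 1.5-fold and the median of the 6 genes was 0.34.

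The sugar chains of these proteins are built in the Golgi by enzymes that start the linker, extend the chondroitin or dermatan sulfate chain and add sulfate. Of 22 such genes, all 22 were detected, 15 were higher and 7 lower, and the median log2 ratio was 0.13. Past 2-fold there was 1 gene higher and 0 lower, beside 0.668% and 1.83% of all detected genes. This was Chst13, a chondroitin 4-sulfotransferase gene, with a dim probe at 29.3 before loading and 87.8 at 24 h and a log2 ratio of 1.59, while its second probe was not detected. With normexp correction Chst13 had 0.72 and lay within 2-fold. Brighter genes of this group stayed within 1.5-fold, among them Chpf, which takes part in chain extension, with a log2 ratio of 0.43, and the sulfotransferases Chst11 with 0.42 and Chst7 with -0.45.

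For keratan sulfate, the chain of fibromodulin and lumican, 9 of 11 listed enzymes were detected, with 7 higher, 2 lower and a median of 0.20. Past 1.5-fold there were 1 higher and 0 lower, beside 3.65% and 5.84% of all detected genes. This gene was the sulfotransferase Chst5, with an intensity of 283 before and 478.5 at 24 h after loading and a log2 ratio of 0.76. Chst1, another keratan sulfate sulfotransferase, had -0.57. Of 7 detected genes of sulfate supply and tyrosine sulfation, 0 were past 1.5-fold in either direction, and the tyrosine sulfotransferases differed in sign, with log2 ratios of 0.50 for Tpst1 and -0.33 for Tpst2. Bmp1, whose protease trims the propeptide of biglycan and osteoglycin, had a log2 ratio of 0.35 on its brightest probe, which is listed by a non-coding transcript. The other probes, listed by a coding transcript of Bmp1, had 0.13 and -0.13. Of the 7 detected genes of propeptide processing, 0 were past 1.5-fold in either direction, and the median was 0.00.

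Among 12 listed proteases, several of which can cleave members of the family, 9 were detected, 8 of them higher and 1 lower, with a median log2 ratio of 0.24. Only Adamts5, an aggrecanase gene, was past 1.5-fold, beside 3.65% of all detected genes higher and 5.84% lower. Its brightest probe was dim, at 68.4 before loading and 105 at 24 h, with a log2 ratio of 0.62 that was 0.21 with normexp correction, and its other probe had 1.31. Mmp14, a membrane-bound collagenase, had 0.58 and Adamts4 had 0.56, just inside 1.5-fold, and both passed it with median, quantile and spike-in scaling.

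The collagens and matrix proteins that the members bind gave no common direction. Of 20 detected genes, 10 were higher and 10 lower, and the median log2 ratio was -0.01, a sign that turned with median, quantile, loess and spike-in scaling. Past 1.5-fold there were 0 higher and 1 lower, beside 3.65% and 5.84% of all detected genes. This was Col11a1, which encodes a chain of the collagen inside cartilage fibrils. It had an intensity of 107657 before and 60799 at 24 h after loading and a log2 ratio of -0.82. Matn1, a cartilage matrix protein gene, had 0.56, just inside 1.5-fold, and passed it with median, quantile, loess and spike-in scaling and with normexp correction (0.59 to 0.70). Among 20 detected growth factors and receptors that the proteins can bind, 9 were higher and 11 lower (15 and 5 when scaled by medians, 14 and 6 when scaled by spike-ins), and 2 were past 1.5-fold, both higher, beside 3.65% of all detected genes higher and 5.84% lower. Tgfb3 joined them, as the third, when the arrays were scaled by medians (0.63) or by spike-ins (0.62). These were Tgfb2, with an intensity of 4120 before and 6543 at 24 h after loading (log2 ratio 0.67, and 0.68 on its second probe), and Bmp4, with 786 and 1901 (log2 ratio 1.28, its second probe not detected). Tgfb3, printed in 8 usable spots, had a mean log2 ratio of 0.53 with an SD of 0.05 between spots, and Tgfb1, in 9 usable spots, had 0.44 with an SD of 0.12. Decorin and asporin bind products of this gene family.

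**Figure D5:**
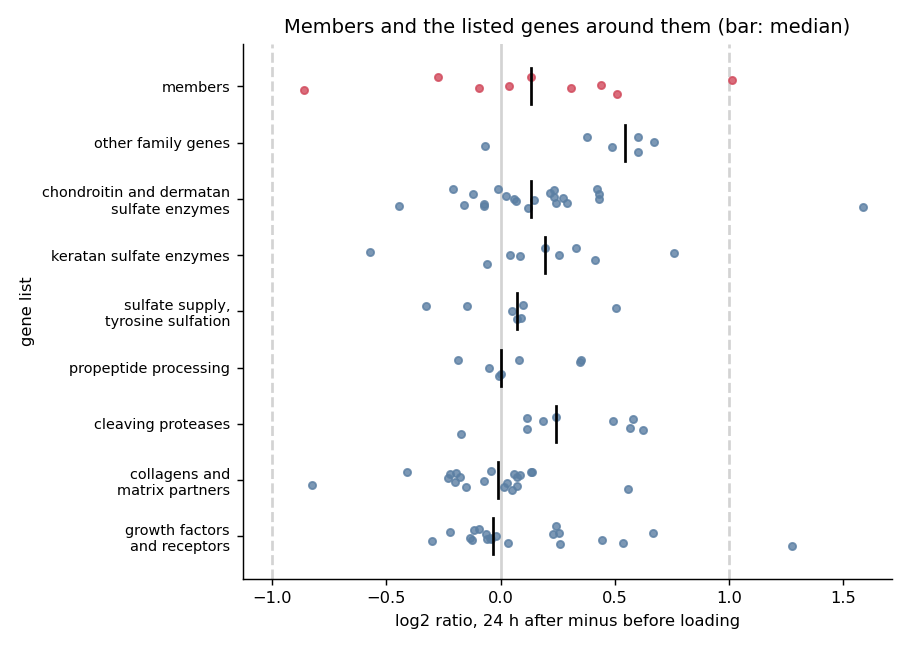
Log2 ratio (24 h after minus before loading) of each detected gene of the family members (red) and of the listed genes around them (blue), with a black bar at the median of each list and dashed lines at 2-fold. The medians lie between -0.03 for growth factors and receptors (above 0 with median and spike-in scaling) and 0.54 for the other family genes, and the points past 2-fold are Ogn, Chst13 and Bmp4.

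These proteoglycans are made by fibroblasts, tendon cells and bone cells as well as by chondrocytes, and markers of those cells were measured in the same RNA. The summed intensity of 14 chondrocyte markers was 1665636 before loading and 1668692 at 24 h. Of these markers 9 were higher and 5 lower, with log2 ratios from -0.82 (Col11a1) to 0.56 (Matn1). For 10 fibroblast markers the sum was 133987 and 135108, with 9 detected, 6 higher and 3 lower. Nearly all of that sum was Col1a1, Col1a2 and Col3a1. Within that list Dpt, which encodes dermatopontin, a matrix partner of decorin, had 10 spots that ranged from 54.1 to 76.0 before loading and from 229.7 to 274.3 at 24 h. All 10 spots of Dpt were higher at 24 h, with a mean log2 ratio of 2.10 and an SD of 0.19, and with normexp correction the mean was 1.34. Fbln1 was the only other one past 1.5-fold, at -0.69, beside 3.65% of all detected genes higher and 5.84% lower. Col1a1, Col1a2 and Col3a1 had log2 ratios of -0.04, 0.01 and 0.13.

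Of 6 tendon markers 5 were detected, 2 higher and 3 lower, with a summed intensity of 4887 before loading and 3600 at 24 h. Most of this sum was Scx (2398 and 1772) and Egr1 (1870 and 1226), and it includes Kera, which was not detected. The tendon transcription factor gene Scx had a log2 ratio of -0.44, and Egr1 and Thbs4 had -0.61 and -0.35. Mkx, also a tendon transcription factor gene, had 0.21, and Tnmd, which encodes tenomodulin, had a mean of 0.52 with an SD of 0.49 over 10 spots. Of 8 osteoblast markers 6 were detected, 1 higher and 5 lower, with a summed intensity of 36608 before loading and 35328 at 24 h. Nearly all of this sum was Col1a1 (34458 and 33493), which the fibroblast list also holds. The higher marker was Bglap2, an osteocalcin gene, at 0.44. Ibsp, a bone sialoprotein gene, had intensities of 259 and 61.9, a log2 ratio of -2.06 (-1.36 with normexp correction), and Alpl and Sp7 had -0.89 and -0.64. Dmp1, a marker of osteocytes, was below the detection limit on both arrays. All 6 macrophage markers with a probe were detected, 5 higher and 1 lower, with a median log2 ratio of 0.21. Their sum was 4429 and 4291, most of it Csf1r, the lower one, at -0.15 on its brightest probe and 0.27 and 0.20 on the others. Ptprc went from 20.9 to 46.1 (log2 ratio 1.14, and 0.40 with normexp correction). Muscle markers summed to 1960 and 1730, and of the 5 detected, 2 were higher and 3 lower. Myh8 had a log2 ratio of 1.15 (0.63 with normexp correction, its second probe not detected) and Myh3 had 0.64. Tnnt3, Acta1 and Myog had -0.78, -0.31 and -0.13, while Ckm, Actn2 and Des were not detected. Endothelial markers summed to 12902 and 12530, nearly all of it Kdr, and Cdh5, Tek, Cldn5 and Emcn were not detected. The part of other cell types in the values of Ogn, Chad and the other members was not tested.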

How the data were processed

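Gene expression was measured on 2 one-colour arrays, 1 per time point. The deposited intensity of every spot was background-subtracted by the authors' scanner software (Agilent Feature Extraction 10.10.1.1), with no scaling of the arrays to each other. A deposited value table holds the same intensities to 3 significant digits (largest difference 0.497%). The number of arrays limits the precision.

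Control spots and spots called outliers on either array were left out, and log2 intensities were averaged over spots of a probe (55678 probes). The 75th percentile of each array was subtracted. Accessions without versions were named through a RefSeq table of assembly GRCm38, which named 27235 probes, and the brightest probe stands for a gene. Members, gene lists and thresholds of 2-fold and 1.5-fold were chosen with earlier results of these data known. All members were named, and, of other lists, detected genes past 1.5-fold and defining markers. Genes beside members on a chromosome, and others inside 1.5-fold, were named after their values were seen. The scaling and calling code was checked on known changes added to the intensities of the first array. That check covers the code only and is no test of the differences between the arrays. Computations used Python 3.11.15 (numpy 2.4.6, pandas 2.3.3), and limma 3.58.1 in R 4.3.3 for normexp (offset 50), quantile and loess.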

Additional observations from a re-analysis of the deposited data

How the results depend on the processing

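All 9 members kept their log2 ratio within 1 within-array error under each of the 10 settings run for it. Each member had 1 detected spot, so averaging over probes, keeping outlier spots and loosening the detection filter could hardly change its ratio. The deposited value table holds the same intensities. Median scaling raised every ratio by 0.0978, and spike-in scaling also moved all genes alike. Agreement under these settings was thus largely fixed in advance. Ogn ranged from 1.01 to 1.11 and Chad from -0.86 to -0.75. The sign of Epyc alone changed, to 0.0009 with median scaling and 0.01 with quantile normalization. Fmod passed 1.5-fold with median scaling, quantile normalization and spike-in scaling, which gave 2 members past 1.5-fold higher in place of 1. When a fold had to be passed by more than 2 within-array errors, 0 members were past 2-fold higher and 0 past 1.5-fold lower. Over all detected genes, 95 were past 2-fold higher and 260 lower. These counts were 38 and 117 with normexp correction, 25 and 99 with the allowance of 2 errors, 192 and 507 where detection on either array was enough, and 492 and 983 with no filter on dim probes. Scaling by medians gave 130 and 205, and by spike-ins 122 and 210. Normexp was run on median spot signals, as no mean signal was among the columns used here. No paired analysis was possible because each group holds 1 array, and leaving out an array leaves no comparison. Signal over background limits dim probes such as those of Optc, Chst13 and Kera. The dimmest spot called well above background had an intensity of 17.3 (before) and 17.8 (24 h), and some brighter spots were not so called.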
